A study of Mus musculus with 145 samples.

Results

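SSC4 is 1 of the 4 clusters of spermatogonial stem cells (SSCs) among single cells of mouse SSC cultures undergoing reprogramming. Its members are the cells that carry the value SSC4 in the cluster column of the deposited cell annotation, 454 cells of the 4464 annotated. They made up 10.5% of the 4339 cells taken from the original condition, the culture without added chemicals, and 20.0% of the 2265 cells in SSC1 to SSC4. The other SSC clusters held 818 cells in SSC1, 499 in SSC2 and 494 in SSC3.

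Transcriptomes were measured by modified STRT-seq, a plate method that tags every cell with a barcode and every captured molecule with its own identifier (UMI), which lets copies made by PCR be counted as 1 molecule. Cells came from 46 libraries over 10 time points between day 0 and day 27, in a batch labelled B1 and another labelled B2, and the same plate of barcodes served every library. The SSC lines came from male pups in the first postnatal week, bred from C57BL/6 females carrying an Oct4-EGFP or EGFP transgene and DBA/2 males, and the labels give no treatment. All cultures, day 0 included, grew in StemPro-34 with EGF, bFGF, GDNF and ESGRO (leukemia inhibitory factor), on inactivated mouse embryonic fibroblasts and without passaging during the course. Colonies were picked and cells taken by mouth pipette, so a share of cells describes what was collected. The sources do not say that libraries of a day came from separate cultures or animals, so p-values measure only the spread between libraries, which may be technical.

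SSCs sustain sperm production by dividing into new stem cells and into progenitors that differentiate. GDNF from the testis soma acts through the receptor RET and its co-receptor GFRA1, and fibroblast growth factors through their own receptors, and both activate ERK signalling and transcription factors such as ETV5, BCL6B and LHX1 that support self-renewal. Genes of mitosis are transcribed mainly late in the cell cycle, and many of their promoters hold a CCAAT box and a cell cycle genes homology region (CHR, with the letters TTTGAA), which are bound by the factor NF-Y and by the DREAM and MuvB complexes.

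SSC4 cells carried the germ cell transcripts that its label implies. *Dazl* and *Ddx4*, germ cell RNA-binding proteins, each had a UMI in all 425 SSC4 cells thinned to 50000 UMIs (lower bound of the 95% exact binomial interval 99.1%), and *Zbtb16*, a transcription factor of undifferentiated spermatogonia, in 86.6% (83.0 to 89.7%). In UMIs summed over the SSC4 cells of a library and scaled to CPM, the count relative to the total after trimmed-mean (TMM) scaling, *Dazl* ranged from 575 to 913 with a median of 681 over 16 libraries, *Ddx4* from 348 to 554 with a median of 433 and *Zbtb16* from 53.7 to 173 with a median of 102. The SSC4 ranges of these 3 genes overlapped those of SSC1, SSC2 and SSC3. *Dazl* was nevertheless lower in SSC4 than in SSC1 in every library that held both, as in day 20 replicate 5 with 686 against 1240 CPM. Only the SSC4 sum of 913 CPM, in day 23 replicate 4, reached the SSC1 range of 862 to 1240 CPM. The summed level of 12 fibroblast markers was 145.6 to 242 CPM in SSC4 (median 197.5) and 161 to 244.5 in SSC3 (median 202.7). It was 113.6 to 317.2 CPM in SSC1 (median 153.8) and 135.1 to 211.8 in SSC2 (median 160.0). The summed level of 3 pluripotency markers (*Pou5f1*, *Nanog* and *Sox2*) had a median of 18.7 in SSC4, 8.37 in SSC1, 8.25 in SSC2 and 23.6 in SSC3. The summed level of 7 testis soma markers had a median of 34.1 CPM in SSC4 and reached 135, against medians of 12.6 in SSC1, 16.7 in SSC2 and 30.9 in SSC3. Of the 7, 5 had UMIs in SSC4 and the Leydig cell genes *Cyp17a1* and *Insl3* had none. The median SSC4 cell held 281650 UMIs and 8644.5 genes, against 149268 and 7417.5 in SSC1, 286300 and 8576 in SSC2 and 378770 and 9532 in SSC3. Within libraries, the median SSC4 cell had more UMIs than the median SSC1 cell in 8 of 9 libraries and fewer than the median SSC3 cell in 12 of 15. The calls below were therefore recomputed on cells thinned to 50000 UMIs, which gave 446 of the 742 calls again.

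SSC4 cells were collected mostly late in the course. Days 20 and 23 held 407 of the 454 cells (89.6%), and the day with the next largest number was day 14 with 24 cells. Day 0 had 9 SSC4 cells, days 10, 12, 16, 18 and 27 had 1 to 5 and day 8 had 0, where 1 cell in all belonged to SSC1 to SSC4. Batch B1 gave 435 of the cells and batch B2 gave 19.

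Among SSC1 to SSC4 cells, the share in SSC4 was higher on day 23 than on day 20. The 7 libraries of day 20 with at least 20 SSC cells ranged from 21.95 to 30.34% with a median of 26.92%, and the 6 of day 23 from 33.7 to 68.09% with a median of 54.92%. The ranges did not overlap. The mean was 26.04% ± 3.29 (SD, n = 7) on day 20 and 54.21% ± 12.72 (SD, n = 6) on day 23, a difference of 28.16 percentage points (two-sided exact permutation test, p = 0.00117, the smallest that this design can give). All of these libraries were of batch B1, but the annotation gives the days separate dates, so day and date cannot be told apart. Day 20 replicates 3 and 4 share a number in their cell names, as do 5 and 6, and 7 with part of 8. Within these pairs the shares were 29.41 and 30.34%, 23.08 and 21.95%, and 27.27 and 26.92%. The test treated each library as independent, so its p-value may be too small if such pairs are not. On day 27 the libraries with 20 and 38 SSC cells had 10.0% (exact interval 1.24 to 31.7%) and 5.26% (0.644 to 17.8%) in SSC4, values below those of the 7 libraries of day 20. Intervals cover counting error only.

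**Figure D1:**
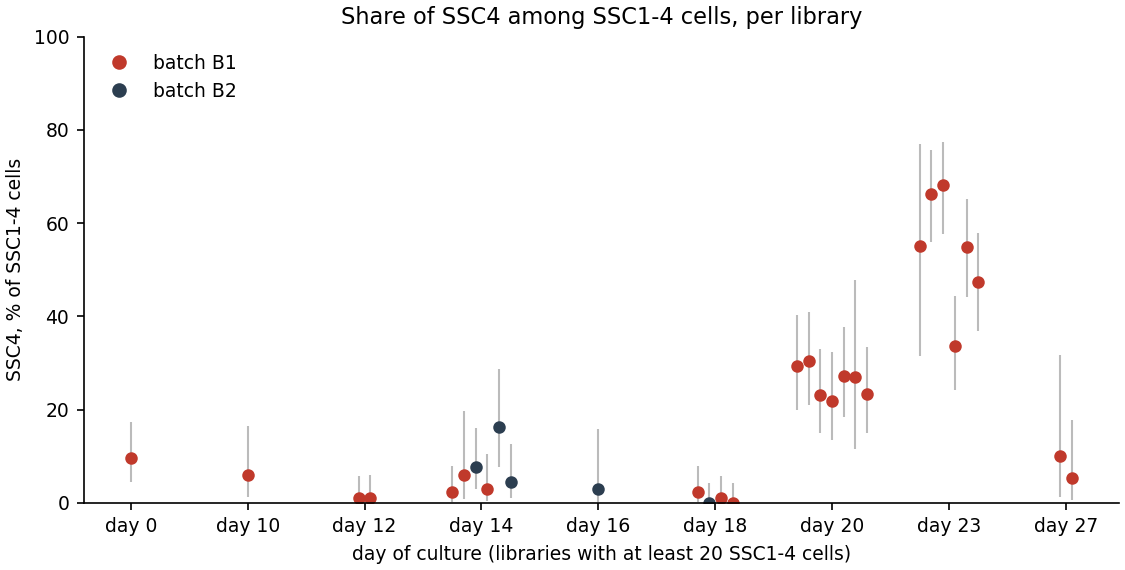
Share of SSC4 among SSC1 to SSC4 cells (y axis, percent) in each library with at least 20 such cells, by day of culture (x axis); points are libraries coloured by batch and bars are 95% exact binomial intervals. The 6 libraries of day 23 lie at 33.7% or more and the 7 of day 20 at 30.34% or less.

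To describe what sets SSC4 apart, UMIs were summed over the cells of each cluster in each library with at least 5 SSC4 cells, which gave 16 sums for SSC4 and 9, 10 and 15 for SSC1, SSC2 and SSC3, and the sums were fitted with the library as a block. A gene was called at an adjusted p below 0.05 and a natural-log fold change of at least 0.5 (1.65-fold, 0.721 on the log2 scale). The clusters were made from these same transcriptomes, so calls and fold changes describe the cluster and are no test of it. Against the mean of SSC1 to SSC3, 521 of 17408 genes (2.99%) were called higher in SSC4 and 221 (1.27%) lower, 742 (4.26%) in all. Against SSC1 alone 439 (2.52%) were higher and 108 (0.62%) lower, against SSC2 475 (2.73%) and 325 (1.87%), and against SSC3 136 (0.781%) and 423 (2.43%). Calls in either direction made up 3.14% of genes against SSC1, 4.6% against SSC2 and 3.21% against SSC3. The commonest patterns over pairs of clusters differed by direction. Of the genes called lower in SSC4, 179 were lower than in SSC2 and in SSC3 and not called against SSC1, and of those called higher, 136 were higher than in SSC1 and in SSC2 and not called against SSC3. Calls against all 3 clusters in the same direction were made for 23 higher genes, among them *Cldn11*, *Dlx4*, *Plb1* and *Nr4a1*, and for 10 lower genes, among them *Mki67*, *Top2a* and *Aspm*.

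Genes of G2 and mitosis were lower in SSC4 than in SSC2 and SSC3. Of a list of 15, 10 were called lower against the mean of the other clusters, beside 1.27% of all genes, and 0 higher, with a median log2 difference of -0.96 beside 0.04 over all genes tested. Against SSC2, 14 were lower with a median of -1.47 (all genes 1.87%), against SSC3 13 with a median of -1.30 (2.43%), and against SSC1 2 with a median of -0.10 (0.62%). The promoters of 4 members that differed clearly are shown because the list is known for shared promoter elements. They are the 150 bases before the RefSeq start on GRCm38.p6, 5′ to 3′ on the gene's strand, with the CHR letters (TTTGAA, or TTCAAA read on the other strand) and the CCAAT box (ATTGG on the other strand) in capitals.

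Mki67 promoter, chr7:135716380-135716529, minus strand: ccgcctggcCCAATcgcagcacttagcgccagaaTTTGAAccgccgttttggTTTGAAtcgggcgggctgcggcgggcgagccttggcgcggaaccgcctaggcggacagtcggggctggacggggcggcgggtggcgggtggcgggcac

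Top2a promoter, chr11:99024190-99024339, minus strand: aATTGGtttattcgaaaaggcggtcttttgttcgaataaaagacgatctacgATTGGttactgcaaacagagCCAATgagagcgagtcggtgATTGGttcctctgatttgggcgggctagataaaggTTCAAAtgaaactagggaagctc

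Cdk1 promoter, chr10:69352913-69353062, minus strand: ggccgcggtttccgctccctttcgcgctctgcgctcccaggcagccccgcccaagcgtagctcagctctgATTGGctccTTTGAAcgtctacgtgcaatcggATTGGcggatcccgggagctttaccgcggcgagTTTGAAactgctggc

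Plk1 promoter, chr7:122159285-122159434, plus strand: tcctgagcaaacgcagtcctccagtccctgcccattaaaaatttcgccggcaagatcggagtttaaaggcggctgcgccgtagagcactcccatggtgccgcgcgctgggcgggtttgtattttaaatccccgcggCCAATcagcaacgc

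The first 3 hold both motifs and *Plk1* holds CCAAT without TTTGAA. Over the 13 list members found in the RefSeq table, 12 (92.3%) held CCAAT or ATTGG and 5 (38.5%), *Mki67*, *Top2a*, *Cdk1*, *Cdc20* and *Ube2c*, held TTTGAA or TTCAAA as well. Of 15896 promoters of the same length belonging to genes tested, 26.4% held CCAAT, 5.66% held TTTGAA and 1.65% held both. In a list of S phase genes, 57.1% of 14 promoters from 13 genes held CCAAT and 7.14% held TTTGAA. These are matches of letters, not measured binding.

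*Mki67*, on chr7:135689784-135716361 of GRCm38 (mm10), encodes the Ki-67 protein that coats mitotic chromosomes. Its level in SSC4 was 4.32 to 33.9 CPM with a median of 13.98, in SSC1 15.3 to 66.4 with a median of 25.5, in SSC2 129 to 241 with a median of 142 and in SSC3 102.5 to 190.4 with a median of 128. No SSC4 sum reached the lowest of SSC2 or SSC3, whereas SSC4 and SSC1 overlapped. The gene was 6.36-fold lower in SSC4 than in the mean of the other clusters (log2 -2.67 ± 0.16, SE), lower in 16 of 16 libraries, where such counts here and below set SSC4 beside the mean of the other SSC clusters present in a library, and the difference was -1.13 ± 0.21 against SSC1. *Top2a*, the topoisomerase that untangles chromosomes before they part, lay at 58.8 to 242 CPM in SSC4 (median 136), 147 to 519 in SSC1 (median 325), 503.5 to 667 in SSC2 (median 551) and 339.9 to 476 in SSC3 (median 420.4). It was 2.95-fold lower against the mean of the others (log2 -1.56 ± 0.09) and lower in every library.

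Other members of the list split by cluster in the same manner. *Cdk1*, the mitotic kinase, had 48.0 to 168 CPM in SSC4, 71.2 to 214 in SSC1, 233 to 377 in SSC2 and 207 to 292 in SSC3. *Plk1*, a kinase of spindle assembly and mitotic exit, had 18.8 to 49.9 CPM in SSC4 and 17.6 to 54.1 in SSC1 but 55.5 to 199.7 in SSC2 and 67.5 to 206 in SSC3, so that SSC4 fell within SSC1 and below the other clusters. The spindle factors *Aurka* and *Tpx2* had log2 differences of -0.05 and 0.05 against SSC1, neither called, and of -1.56 and -1.88 against SSC2. *Ccnb1*, cyclin B1, differed from the mean of the others by -0.73, and *Cenpf*, a kinetochore protein, by -0.68, which was not called. The call of *Ccnb1* was lost without any 1 of day 20 replicates 4, 8 and 9, at -0.71 to -0.70, and in 8 of 25 settings in all. *Bub1*, a checkpoint kinase, was not called in any of the 4 comparisons (-0.35 against the mean).

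**Figure D2:**
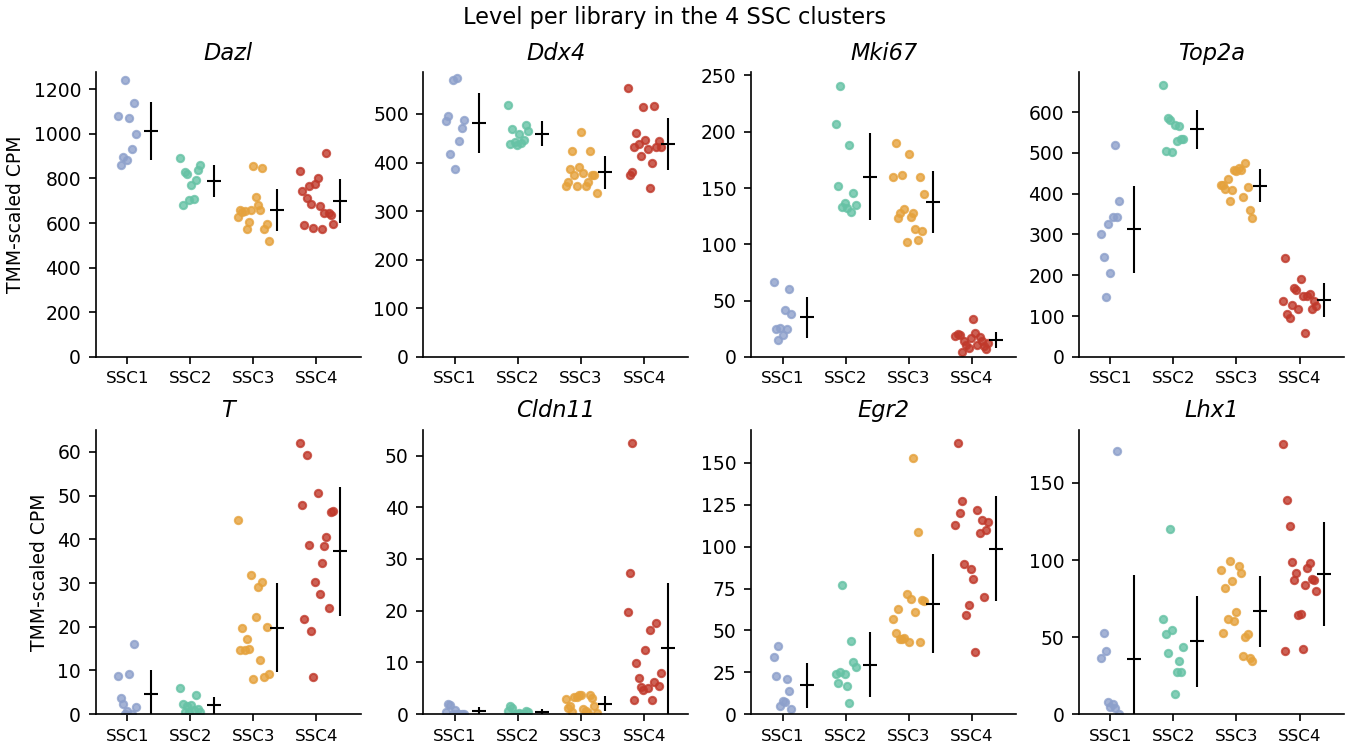
TMM-scaled CPM of 8 genes in the UMI sums of each library (points) in SSC1 to SSC4, with the mean and SD beside each cluster (SSC1 n = 9, SSC2 n = 10, SSC3 n = 15, SSC4 n = 16). The Dazl and Ddx4 sums of SSC4 overlap those of each other cluster, but only the SSC4 Dazl sum of 913 CPM reaches those of SSC1. The SSC4 sums of Mki67 and Top2a lie below all sums of SSC2 and SSC3, and T, Cldn11 and Egr2 have their highest mean in SSC4.

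Single SSC4 cells showed the same difference at equal depth. After thinning each cell to 50000 UMIs, which left out 6 SSC4 cells as shallower, along with 53 of SSC1, 2 of SSC2 and 2 of SSC3, the UMIs of the 15 G2 and mitosis genes summed to a median of 88 in SSC4 (quartiles 66 and 116) and to medians of 109 in SSC1, 214 in SSC2 and 205.5 in SSC3. The highest SSC4 cell had 192 UMIs, below the median cell of SSC2 and of SSC3. The library medians were 78 to 121 in SSC4, 86 to 129 in SSC1, 193 to 287 in SSC2 and 176 to 248 in SSC3. *Mki67* had a UMI in 27.3% of thinned SSC4 cells (23.1 to 31.8%), 44.5% of SSC1, 90.7% of SSC2 and 91.0% of SSC3 cells, and before thinning in 70.1, 66.3, 99.0 and 97.8%. The unthinned shares of SSC4 and SSC1 thus stood in the reverse order of the thinned ones, beside the median depths of 281650 and 149268 UMIs.

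**Figure D3:**
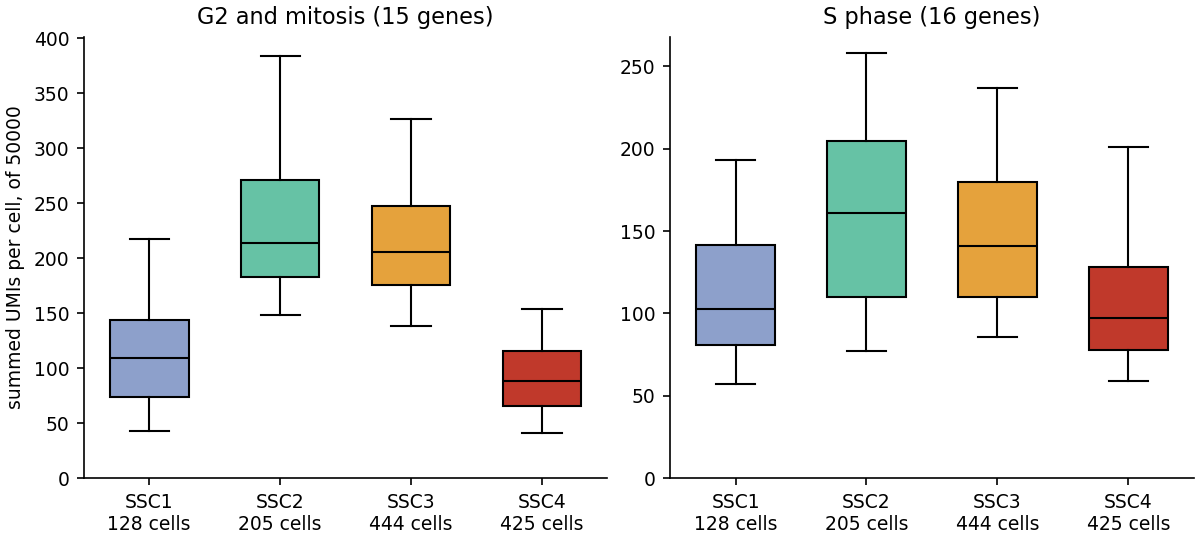
Summed UMIs per cell, of 50000 (y axis), for 15 genes of G2 and mitosis (left) and 16 of S phase (right) in thinned cells of each SSC cluster; boxes show the median and quartiles and whiskers the 5th and 95th percentiles of cells. The mitotic medians are 88 in SSC4, 109 in SSC1, 214 in SSC2 and 205.5 in SSC3.

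Genes of S phase differed less. Of 16, 2 were called lower in SSC4 than in the mean of the others, beside 1.27% of all genes, and 0 higher, with a median of -0.39. Against SSC2 9 were lower with a median of -0.75 (all genes 1.87%), against SSC3 1 (2.43%) and against SSC1 0 (0.62%). Without day 0 replicate 1, 4 were lower against SSC2. Against SSC3 the count was 3 without day 14 replicate 3, 2 without day 20 replicate 8 or 9 and 4 in thinned cells. *Rrm2*, a subunit of ribonucleotide reductase, had 20.4 to 120.2 CPM in SSC4 (median 57.9), 17.4 to 115 in SSC1, 119.6 to 255 in SSC2 and 108 to 203 in SSC3, a log2 difference of -1.08 ± 0.13 from the mean. *Cdc6*, which loads the replicative helicase, was the other call at -0.81 ± 0.20, and without day 0 replicate 1 it was not called (-0.67). The helicase subunit *Mcm2* differed by -0.13 and was not called. At 50000 UMIs the S phase genes summed to a median of 97 in SSC4 cells, 103 in SSC1, 161 in SSC2 and 141 in SSC3.

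A named gene had to be called, to average at least 10 CPM in its highest cluster and to differ in the same direction in all 16 libraries, which 34 higher (0.195%) and 47 lower genes (0.27%) did. The 12 lower genes of largest difference included *Mki67* and *Top2a*. Of the others, *Kif11*, *Aspm*, *Nusap1*, *Hmmr*, *Ckap2l*, *Prr11* and *Psrc1* encode proteins known from the spindle or mitosis, a grouping made after their values were seen. *Kif11*, the motor that separates spindle poles, had 18.03 to 61.4 CPM in SSC4 against 86.8 to 170.0 in SSC2 and 72.8 to 171 in SSC3 (log2 -1.60 ± 0.13 against the mean). In SSC1 it had 30.97 to 87.9 CPM, which overlaps SSC4. Of the 12, *Mki67*, *Top2a*, *Aspm* and *Rnpep* were called against SSC1 and the other 8 were not. The linker histones *Hist1h1a* and *Hist1h1e* differed by -2.83 ± 0.47 and -1.67 ± 0.27, but histone genes have near-identical copies that share reads, and exons of *Hist1h1e* overlap *Hist1h2be* on the same strand, so both are uncertain. *Rnpep*, an aminopeptidase, differed by -2.15 ± 0.53, with a sum of 172 CPM in 1 SSC1 library.

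On the higher side the largest difference was in *Cldn11*, a claudin of tight junctions that testis tissue is known to express in Sertoli cells, on chr3:31149920-31164324. SSC4 sums ranged from 2.65 to 52.4 CPM with a median of 7.54, while SSC1 reached 1.97, SSC2 1.54 and SSC3 3.78 at most. The lowest SSC4 sums therefore lay within the range of SSC3. The log2 difference from the mean was 4.14 ± 0.44. Levels were 52.4 and 27.3 CPM in the libraries of day 14, 19.8 on day 0 and 2.65 to 17.7 on days 20 and 23. The libraries of day 14 were the only ones of batch B2 in the fit, and days 0 and 14 share a date that differs from those of days 20 and 23, so day, batch and date cannot be told apart in these levels. A UMI was present in 12.9% of thinned SSC4 cells (9.9 to 16.5%) and in 7.66% of SSC3, 1.46% of SSC2 and 3.12% of SSC1 cells, so most SSC4 cells had none at this depth. The share in SSC4 varied between libraries from 4.17 to 66.7%, with a median of 10.6%. Of the 7 testis soma markers, which do not include *Cldn11*, 4 could be tested and 1 was called higher, beside 2.99% of all genes, and their summed level was 0.594 to 135 CPM in SSC4 with a median of 34.1, 7.93 to 58.7 in SSC3 with a median of 30.9, 7.29 to 34.8 in SSC2 and 6.31 to 34.7 in SSC1. The part of such cells in these values was not tested. The gene called was *Sox9*, a transcription factor of Sertoli cells and of other cell types, at 0.0 to 93.5 CPM in SSC4 (median 20.3) and 6.07 to 32.8 in SSC3 (median 12.9), a log2 difference from the mean of 1.99 ± 0.32, and the other tested members, *Gata4* (1.62 ± 0.94), *Star* (0.41 ± 0.83) and *Wt1* (-0.69 ± 0.33), were not called. The list's median was 1.01 against the mean and -0.28 against SSC3. *Amh* was too low to be tested at a mean of 0.0271 CPM in SSC4.

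*T* (brachyury), a T-box factor of the mesoderm that is also reported in cultured SSCs, lies on chr17:8434423-8442496. It had 8.47 to 62.0 CPM in SSC4 with a median of 38.6, 8.04 to 44.4 in SSC3 with a median of 17.2, 0.0 to 16.1 in SSC1 with a median of 2.27 and 0.405 to 6.03 in SSC2 with a median of 1.54. All SSC4 sums lay above all SSC2 sums and most above those of SSC1, while SSC3 overlapped SSC4. The difference was 2.82 ± 0.26 on the log2 scale against the mean and 0.87 ± 0.28 against SSC3. The call against the mean held in 25 of 25 other settings, but that against SSC3 was lost in 9, among them without any 1 of day 20 replicates 3, 4 and 8 and day 23 replicates 3, 5, 6 and 7. The related T-box gene *Eomes* did not follow this order, with a mean of 12.8 CPM in SSC4 and 17.8 in SSC3 against 4.21 in SSC1 and 2.56 in SSC2.

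The other leading higher genes have varied roles. *Pcsk2*, a prohormone convertase, differed by 2.23 ± 0.23, *Cdc42ep3*, an effector of the GTPase CDC42, by 1.92 ± 0.23 and *Ppef2*, a protein phosphatase, by 1.58 ± 0.42. None of these 3 was called against SSC3 alone, where the log2 differences were 0.64, 0.56 and 0.80, and *Ppef2* was not called against SSC1 either. *Dlx4*, a homeobox factor, had 24.2 to 61.0 CPM in SSC4 against 7.05 to 35.9 in SSC3, and differed from the mean by 1.47 ± 0.23. *Lck*, a kinase of the Src family, had 30.04 to 94.0 CPM in SSC4 against 7.01 to 54.6 in SSC3 and differed by 1.2 ± 0.18. *Plb1*, a phospholipase, *Cpne8*, a copine, *Tmc8*, *Nat14* and *Rasgef1c* differed by 1.19 to 1.40. The last 3 were not called against SSC1, and *Tmc8* and *Rasgef1c* were not called against SSC3. Exons of *Dlx4*, *Pcsk2*, *Cdc42ep3*, *Tmc8* and *Plb1* overlap genes on the opposite strand, as do those of *Nusap1*, *Ckap2l*, *Rnpep*, *Plk1*, *Gfra1* and *Eomes*, and since the sources used here do not say whether counting used strand, reads of these pairs cannot be told apart.

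Genes of the self-renewal programme tended to be higher in SSC4. Of a list of 18, 6 were called higher than the mean of SSC1 to SSC3, beside 2.99% of all genes, and 0 lower, and the median log2 difference was 0.63. Against SSC1 7 were higher (median 0.91, beside 2.52% of all genes), against SSC2 5 (median 0.62, beside 2.73%) and against SSC3 1 (median 0.27, beside 0.781%). Against SSC2 the count was 8 without day 23 replicate 5. The call against SSC3 was that of *T*, described above and also 1 of the 6, and no other member was called there. That call was lost without any 1 of day 20 replicates 3, 4 and 8 and day 23 replicates 3, 5, 6 and 7. *Egr2*, a zinc finger factor induced by GDNF and ERK signalling, had 37.3 to 162 CPM in SSC4 with a median of 109, 3.14 to 40.6 in SSC1 with a median of 13.7, 6.73 to 76.9 in SSC2 with a median of 24.6 and 43.0 to 153 in SSC3 with a median of 61.2. The sums of SSC4 and SSC3 overlapped over most of their range. The difference from the mean was 1.53 ± 0.16. *Lhx1*, a LIM homeobox factor of the GDNF response, had 41.0 to 175 CPM in SSC4 (median 87.5), 34.3 to 99.5 in SSC3 (median 61.6), 13.3 to 120.4 in SSC2 (median 41.4) and 0.0 to 171 in SSC1 (median 8.17), and differed by 1.13 ± 0.24.

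*Bcl6b*, a repressor required for SSC maintenance, differed from the mean by 0.85 ± 0.17, a call lost in 4 of 25 settings (at least 10 cells, thinned cells, batch B1 only and sums per batch and day), the tetraspanin *Tspan8* by 0.90 ± 0.17 and *Eomes* by 1.23 ± 0.38. *Eomes* was not called without day 14 replicate 5 or without any 1 of day 20 replicates 3, 4 and 5, at 1.09 to 1.13. *Etv5* had 85.8 to 188 CPM in SSC4 and lay above the mean of the other clusters in 16 of 16 libraries (0.63 ± 0.10, not called), but SSC3 was above SSC4 in day 20 replicates 5, 6 and 9 and SSC2 was above it in day 23 replicate 5. The GDNF receptor genes *Gfra1* and *Ret* differed by 0.69 ± 0.17 and 0.40 ± 0.08, each higher in 15 of 16 libraries and not called against the mean. *Id4*, a marker of the stem cell fraction, had 0.23 and *Zbtb16* 0.08, with 10 and 12 of 16 libraries higher and neither called.

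Feedback inhibitors of ERK signalling and immediate early genes are given beside the 2.99% of all genes called higher against the mean. Of 14 ERK feedback genes tested from a list of 15, *Spry4* and *Phlda1* were called higher than the mean of the others and 0 lower (median 0.32). Against SSC1 5 were higher, against SSC2 3 and against SSC3 0. On days 20 and 23 only, the counts were 0 against the mean, 2 against SSC1 and 1 against SSC2, and without day 14 replicate 3 the count against SSC1 was 3. *Spry4*, a Sprouty inhibitor of receptor tyrosine kinases, had 8.06 to 69.9 CPM in SSC4 with a median of 35.4 and 10.6 to 42.0 in SSC3 with a median of 31.98, and differed from the mean by 1.06 ± 0.24. *Phlda1* differed by 0.85 ± 0.27 and was not called without any 1 of 4 libraries, namely day 14 replicate 5, day 20 replicates 5 and 8 and day 23 replicate 5 (0.76 to 0.79). *Dusp6*, a phosphatase of ERK, had 113 to 295 CPM in SSC4 and 99.9 to 236 in SSC3 and differed by 0.67 ± 0.10, below the threshold. Of 11 immediate early genes tested from 12, *Jun*, *Junb* and *Nr4a1* were called higher, and 1 gene in thinned cells. *Nr4a1*, an orphan nuclear receptor, had 33.6 to 102 CPM in SSC4 (median 71.7) against 17.8 to 68.8 in SSC3 (median 41.2), and was higher by 0.89 ± 0.15 against the mean and by 0.89 against SSC3 alone. *Junb* was not called without day 14 replicate 5 or any 1 of day 20 replicates 3 to 6 (0.61 to 0.71), while *Fos* and *Egr1* differed by 0.35 and 0.06 without a call.

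**Figure D4:**
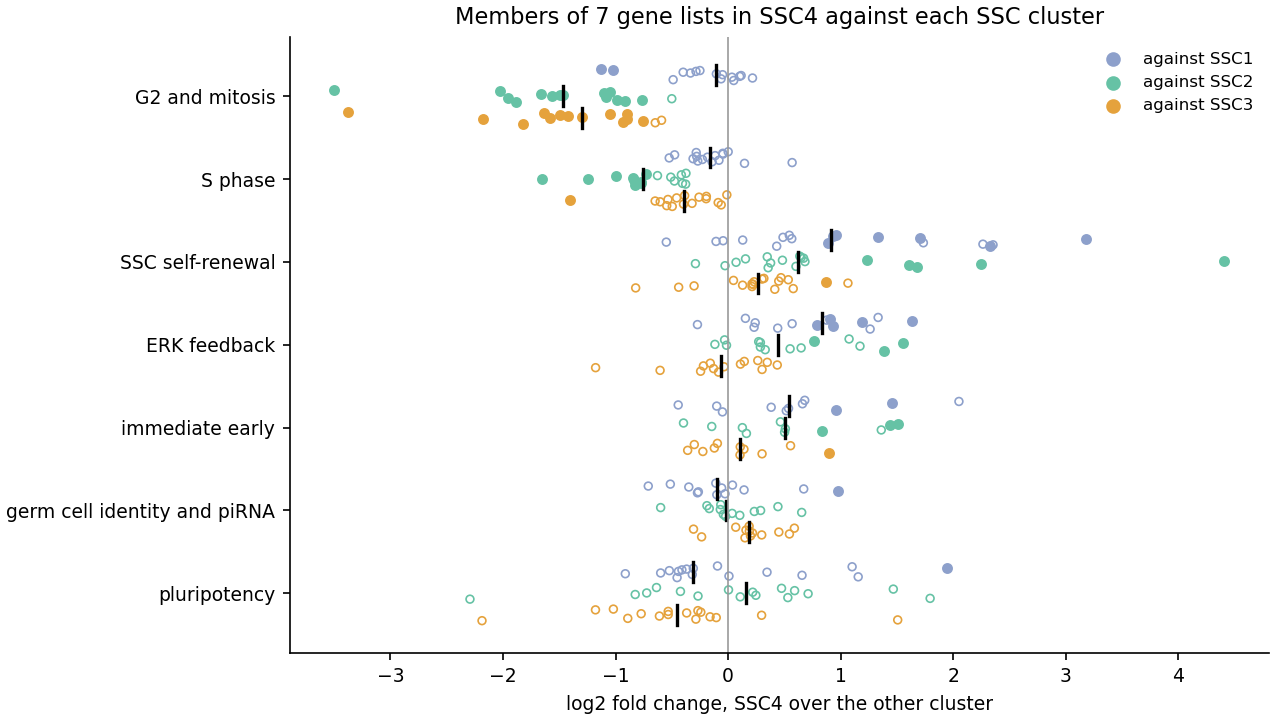
Log2 fold changes of SSC4 over each other SSC cluster (x axis) for the tested members of 7 gene lists (y axis), with filled points for called genes, open points for others and a black bar at each median. Mitotic genes lie left of 0 against SSC2 (median -1.47) and SSC3 (median -1.30) but near it against SSC1 (median -0.10), and the self-renewal medians are 0.91, 0.62 and 0.27.

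Calls among differentiation and germ cell genes were about as frequent as the 4.26% of all genes, with meiosis genes given apart. Of 12 progenitor and differentiation genes tested from 13, 0 were called against the mean in either direction (median -0.16). *Stra8*, a retinoic acid target that marks commitment to differentiation, had 22.4 to 111 CPM in SSC4 with a median of 52.2 and 97.7 to 245 in SSC1 with a median of 147.5. The groups overlapped in the 97.7 to 111 CPM interval, and *Stra8* was called lower against SSC1 (log2 -1.14) but not against the mean (-0.68 ± 0.13). *Kit* differed by -0.53 without a call. Of 13 germ cell and piRNA genes, *Piwil4*, a piRNA-pathway Argonaute, was called higher (0.73 ± 0.15, higher in 16 of 16 libraries) and lost the call without any 1 of 8 libraries, namely day 14 replicate 5, day 20 replicates 3, 4, 6 and 7 and day 23 replicates 1, 3 and 7 (0.68 to 0.71). *Dmrt1*, a factor that holds spermatogonia back from meiosis, lay below the mean of the other clusters in 16 of 16 libraries (-0.54 ± 0.06, not called), though above SSC3 in 3 of them, and *Dnd1*, a germ cell RNA-binding protein, above that mean in 16 of 16 (0.36 ± 0.05, not called). Of 13 meiosis genes, the recombinase *Dmc1* and *Meioc* were called lower, beside 1.27% of all genes. *Dmc1* had 4.61 to 27.02 CPM in SSC4 and 9.61 to 68.1 in SSC3 (-0.88 ± 0.19). *Meioc* (-0.82) kept its call in 10 of 25 other settings, and lost it without any 1 of 10 libraries (-0.87 to -0.65), namely day 0 replicate 1, day 14 replicates 3 and 5, day 20 replicates 3, 4, 5 and 9 and day 23 replicates 1, 4 and 6.

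Pluripotency genes, glycolytic enzymes and hypoxia genes gave 0 calls against the mean of the other clusters, beside 4.26% of all genes, among 16, 18 and 14 tested, with medians of -0.25, -0.08 and -0.13. The hypoxia gene *Adm* gained a call against the mean in 13 of 25 other settings. *Nanog* averaged 1.84 CPM in SSC4 and 6.71 in SSC3, and *Ldha*, the lactate dehydrogenase of glycolysis, 404 and 376. *Sox2* had 0.0 to 49.9 CPM in SSC4 with a median of 16.5, 1.57 to 14.96 in SSC1 with a median of 3.67, 0.0 to 40.3 in SSC2 with a median of 6.20 and 4.12 to 48.5 in SSC3 with a median of 19.9. It was called higher than in SSC1, and this call was lost in 7 of 25 settings, among them without any 1 of day 20 replicates 5, 6 and 8 and day 23 replicate 5. Against the mean it was not called, but it was in 9 of the 25 settings. Of 12 genes of the mitochondrial genome tested, 0 were called against the mean and 6 were lower than in SSC1, the cluster of least depth, beside 0.62% of all genes. The 6 fell to 1 without day 20 replicate 8, and to 0 in cells thinned to 50000 UMIs and with sums per batch and day. An example is *mt-Cytb* with means of 1868 CPM in SSC4 and 3206 in SSC1. Beside this, the median SSC4 cell had 0.854% of its UMIs from mitochondrial genes and the median SSC1 cell 1.21%, and the library median was lower in SSC4 in 9 of 9 libraries.

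In other lists 1 to 3 members were called against the mean, beside 4.26% of all genes. Of 9 Wnt targets tested, *Sp5* was called higher (0.95 ± 0.19) and *Axin2* lower (-1.06), the latter not called without day 0 replicate 1 or day 20 replicate 4 (-0.96 to -0.90). Of 7 retinoid genes tested, the binding protein genes *Crabp2* and *Crabp1* were called in opposite directions, at 0.98 and -0.74, with *Crabp1* lost without day 0 replicate 1, day 14 replicate 5 or day 20 replicate 6 (-0.72 to -0.64). Of 14 imprinted genes tested, *Meg3* (1.32) and *Impact* (1.13, higher in 16 of 16 libraries) were higher and the cyclin-dependent kinase inhibitor *Cdkn1c* (-0.98) lower. Of 12 p53 targets tested, *Plk2* was called lower (-0.86), and *Cdkn1a*, the p21 inhibitor of cyclin-dependent kinases, had 19.12 to 202 CPM in SSC4, 155 to 422 in SSC3 and 11 to 129.5 in SSC1, called lower against SSC3 (-1.06) and higher against SSC1 (0.97).

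SSC4 was also set beside the clusters RPG1, which the study places on its reprogramming branch, and Neural1 in the libraries that held at least 5 cells of each. With 2 and 5 such libraries these are values without a test. Day 20 replicate 8 joins cells of separate name prefixes, which may come from separate collections. RPG1 had more *Mki67* than SSC4 in both libraries, 104 against 33.9 CPM in day 20 replicate 8 and 36.9 against 10.2 in day 23 replicate 1, where SSC3 had 180 and 128. *Stra8* was lower in RPG1, at 19.7 and 19.5 CPM against 58.8 and 63.6 in SSC4, and *Lhx1* was higher, at 141 and 199 against 65.3 and 83.8. Genes high in SSC4 were also present in RPG1. In day 23 replicate 1, *Cldn11* had 16.4 CPM in RPG1 and 16.3 in SSC4, *T* 41.9 and 34.5 and *Egr2* 125 and 122, whereas in day 20 replicate 8 RPG1 was the lower in each, at 2.79 and 12.5, 14.6 and 50.5, and 48.1 and 80.8. *Cldn11* had a UMI in 10 of 91 thinned RPG1 cells (5.4 to 19.3%) and in 12.9% of SSC4 cells. Neural1 lay near SSC4 in *Mki67*, at 2.07 to 19.8 CPM in 5 libraries, and in its mitotic UMI sum, with a median of 95 per thinned cell. It had less *Etv5*, at 7.52 to 54.6 CPM against 104 to 171 in the SSC4 cells of the same libraries, and less *Egr2*, at 5.73 to 31.1 against 64.9 to 127.

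Within SSC4, cells of day 23 and day 20 did not differ in any called gene. Of 13218 genes tested over 7 libraries of day 20 and 6 of day 23, 0 (0%) were called by edgeR's quasi-likelihood test, and 598 (4.52%) had an unadjusted p under 0.05. DESeq2 also called 0, with 750 at an unadjusted p under 0.05. *Dmrt1* had 173 to 270 CPM on day 20 and 76.2 to 238.5 on day 23 (log2 -0.56 ± 0.18, edgeR adjusted p = 0.997), so the days overlapped. *T* had 8.47 to 59.3 and 24.4 to 46.6 CPM and *Mki67* 4.32 to 33.9 and 7.17 to 17.5, with differences of 0.21 ± 0.31 and -0.37 ± 0.41. The library of day 0 had 62.0 CPM of *T* and 18.5 of *Mki67* in its 9 SSC4 cells, within the range of the later days for *Mki67* and above it for *T*.

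**Figure D5:**
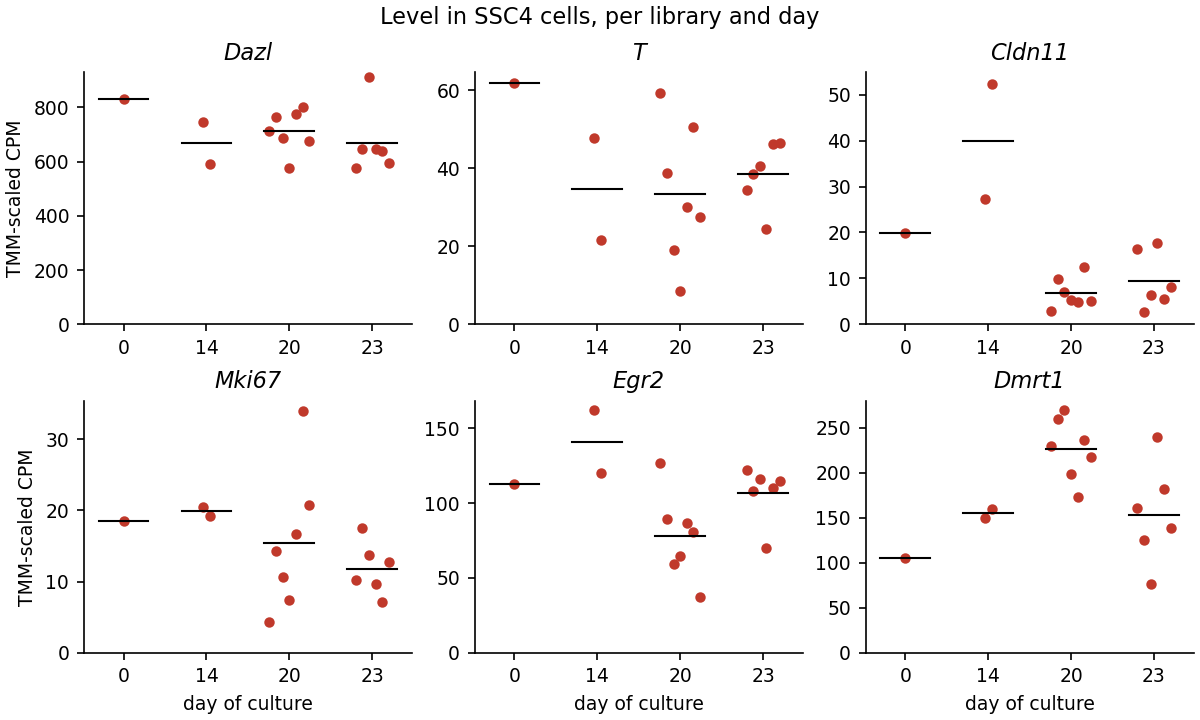
TMM-scaled CPM of 6 genes in the SSC4 sums of each library (points) by day of culture, with a line at the mean of each day (day 0 n = 1, day 14 n = 2, day 20 n = 7, day 23 n = 6). Days 20 and 23 overlap for all 6 genes, and Cldn11 is highest in the libraries of day 14, which are the only ones of batch B2.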

How the data were processed

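Single cells were processed by modified STRT-seq. Per the study's methods, UMItools took barcodes and UMIs, STAR 2.7.2b aligned reads to mm10 and featureCounts 2.0.0 assigned them to genes, whose annotation is not given in the sources used here. The deposited table holds unnormalized UMI counts for each gene in each cell, made by the authors after removing cells of few genes or high mitochondrial content, and an annotation with the Seurat cluster, library, batch and mitochondrial percent of each cell. Of the deposited files, 16 libraries with at least 5 SSC4 cells were read (431 of 454 cells), and 2949 cell columns of other libraries were used only through the annotation. Day 20 replicate 8 and day 14 replicate 5 each joined cells of separate name prefixes and were each treated as a single library. Row names matched GENCODE vM21 symbols for 23552 of 24615 genes. Doublets were left as the authors' filter left them.

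The replicate was the library. Counts were summed per library and cluster (1465998 to 19979957 UMIs in SSC4, 293513 to 20871855 in SSC1 to SSC3) and fitted in edgeR 4.0.16 (R 4.3.3; TMM, filterByExpr, glmQLFit, glmQLFTest) with the library as a block between clusters and with no block between days. P-values were adjusted by Benjamini-Hochberg over all genes tested. CPM are TMM-scaled. Shares were compared with scipy 1.17.1, and cells were thinned with a fixed seed. The cluster and day fits were tested on simulated data. Between the SSC4 sums of 120 pairs of libraries, the lowest chi-square per degree of freedom was 16.02, so none was counted as a duplicate. Genes named were the 12 largest in each direction by the rule given in the text, and members of 28 gene lists. Members and lists were chosen with earlier results of these data known. Alternatives were size factors and a fit by DESeq2 1.42.0, no filter, no block, at least 10 cells, thinned cells, batch B1, days 20 and 23, sums per batch and day, and each library left out. Methylation data were not analysed here.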

Additional observations from a re-analysis of the deposited data

Results flagged for a closer look

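Within the SSC4 sums of a day, the highest or lowest library stood apart from the others by Dixon's criterion in 4 of 44 groups of libraries tested, where chance gives about 1 in 20. *Ret*, the GDNF receptor, was at 167 CPM in day 20 replicate 7, above the other libraries of that day. *Dazl* was at 913 CPM in day 23 replicate 4, the highest of its day. *Plk1* was at 41.7 CPM in day 23 replicate 7, above the other libraries of day 23 and within the range of day 20. *Egr2* was at 70.1 CPM in day 23 replicate 5, the lowest of its day, in the library that also had the lowest share of SSC4 on day 23 (33.7%).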

How the results depend on the processing

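Leaving out each library in turn, the genes called higher and lower in SSC4 numbered 445 to 559 and 167 to 231 against the mean of SSC1 to SSC3, 367 to 449 and 94 to 137 against SSC1, 381 to 516 and 253 to 337 against SSC2 and 118 to 151 and 365 to 433 against SSC3. With sums per batch and day, which leave 4 units in place of 16, the counts were 111 and 90, 152 and 55, 141 and 203, and 12 and 94 in the same order. DESeq2 called 343 lower against the mean, 774 higher and 221 lower against SSC1, 967 higher against SSC2 and 267 higher against SSC3. Against SSC1 the count of lower genes was 193 without the library block, 215 with at least 10 cells and 173 on days 20 and 23 only. The cause of these shifts was not tested beyond the fewer units. Of the 742 genes called against the mean, 658 were shared with DESeq2, 446 with thinned cells and 164 with sums per batch and day. The other counts over all genes stayed within 1.5 times, and no called gene changed direction. Against SSC2, higher calls outnumbered lower ones except with sums per batch and day. Of values for single genes under alternatives other than a left-out library, called or not, 4035 stayed on their side of the threshold, 256 lost a call and 110 gained one. With left-out libraries included, calls against the mean were lost in 10 of 25 settings for *Piwil4* and *Isg15*, 9 for *Junb* and *Phlda1*, 7 for *Eomes*, 6 for *Crabp1*, 5 for *Axin2*, 3 for *Cdc6* and 2 for *Spry4*. Mitotic genes called lower numbered 13 to 14 against SSC2 and 12 to 14 against SSC3 in 25 settings, self-renewal genes called higher 3 to 7 against the mean, S phase genes called lower 1 to 3 against the mean and 4 to 10 against SSC2, ERK feedback genes called higher 0 to 3 against the mean and 2 to 7 against SSC1, and mitochondrial genes called lower 0 to 6 against SSC1.

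The share on day 23 exceeded that on day 20 by 25.39 to 32.27 points with each library left out in turn, a setting chosen after seeing the data. The days compared share replicate numbers in their sample titles. Libraries with the same title number deviated together with correlations of -0.0381 to 0.0608 only, so these numbers gave no sign of a pairing. The cell names number the libraries otherwise, and a pairing by those was not tested. With the replicate number as a block, over 10 libraries, 0 genes were called between the days, as in the same libraries without it, a fit also added after seeing the data, and 0 with each library left out. Sums of as few as 6 cells, and of 293513 UMIs in SSC1, limit low genes.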

Other observations

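Further gene groups in SSC4 are given beside the 4.26% of all genes called against the mean of SSC1 to SSC3. Of 10 interferon and MHC class I genes tested, *Isg15*, a ubiquitin-like protein, was called higher than the mean of SSC1 to SSC3 (log2 0.74), and it lost the call without any 1 of 7 libraries (0.53 to 0.73), namely day 20 replicates 3, 5, 6, 7 and 9 and day 23 replicates 3 and 4. Of 6 BMP targets tested, the inhibitory *Smad6* was called higher (1.38), with a mean of 26.7 CPM in SSC4 and 4.71 in SSC1, and *Id1* differed by -0.001. Among 12 epithelial and mesenchymal genes tested, *Vim* was called higher (1.76) at a mean of 7.68 CPM in SSC4 and 6.34 in SSC3, and *Epcam* differed by -0.05. *Amotl2*, of 8 AP-1 and YAP targets tested, was called higher (0.90). Lists of metallothionein and redox genes, sterol synthesis, the amino acid response, the unfolded protein response, DNA methylation, fibroblast markers and neural markers gave 0 calls against the mean.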
